A study of Mus musculus with 2 samples.

Results

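RNA bound to Prrc2a in the mouse brain was mapped as peaks in 2 replicates, and 8386 peaks of replicate 2 lay in exons of protein-coding genes at places where replicate 1 had no peak. These peaks were chosen by their positions in both lists: each overlapped no replicate 1 peak by even 1 bp, and at least 1 bp of it lay in an exon of a protein-coding gene of GENCODE release M21. They made up 8386 of the 16084 exonic peaks of replicate 2 (52.1%), 44.9% of its 18671 peaks, and were drawn from a total of 36800 peaks over both replicates. The assay was RIP-seq, in which an antibody pulls down a protein and the RNA that comes with it is sequenced. Both samples were whole brain, taken from male mice of the C57BL/6J strain that were wild type and 4 weeks old. The labels name no altered allele and no treatment for either sample, and there was no second condition. The study calls the replicates biological, while the protocol describes 3 brains without saying which of them went into which replicate. A lysate precleared with goat IgG was incubated with beads that carried the Prrc2a antibody. Micrococcal nuclease then trimmed the bound RNA, proteinase K freed it, and rRNA was removed before sequencing.

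Prrc2a is a large proline-rich protein with coiled-coil stretches, and it has been described as a reader of m6A, the methyl mark on adenosine in mRNA. Methylation is written by the Mettl3 and Mettl14 complex, removed by Fto and Alkbh5, and bound by readers such as the Ythdf and Igf2bp proteins. It is placed at short motifs, of which GGAC is the best known, and is most frequent in long internal exons and around stop codons. In the brain, m6A and its readers have been tied to the growth and specification of oligodendrocyte precursors, the cells that go on to make myelin.

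The value of a peak is its fold enrichment, a linear ratio that the peak caller gave for the antibody library against a control. Each peak has 1 such value and no replicate, since by the choice itself the other sample has no peak there, so no error can be given for a single peak and no test across samples was possible. Intervals of shares below are 95% Wilson intervals and cover counting error only. Peaks within a library are not replicates of the condition. The number of reads behind a peak is not given, so the absence of a replicate 1 peak cannot be told apart from too few reads there.

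The lists differed in composition. In replicate 2, 86.1% of the 18671 peaks touched an exon of a protein-coding gene, against 65.8% of the 18129 peaks in replicate 1. In the other direction, 4617 exonic peaks were found only in replicate 1. The numbers of protein-coding genes with an exonic peak were 4619 in replicate 2 (21.04%) and 3617 in replicate 1 (16.48%), and 2973 genes had one in both. Of 17 marker genes of tissues outside the brain, 0 had an exonic peak in replicate 2 and 2 had one in replicate 1. Of the brain cell type markers, 3 of 21 neuronal, 1 of 16 astrocytic and 5 of 29 myelin genes had an exonic peak in replicate 2, against the 21.04% of all genes.

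Central stretches of 101 bases from 7 of the peaks show GGAC in its setting. They were picked from coding stretches that hold the motif, so they are not typical of the peaks: of the 7107 with such a window, 37.5% hold it. The genes were among those with the highest fold enrichments or the most peaks, or belong to the m6A or the oligodendrocyte lineage list, and the stretch shown is not always from the strongest peak of the gene. Each lies wholly in 1 coding exon and is written on the strand of its gene from 5′ to 3′, with every GGAC in capitals. Coordinates are those of mm10, the bases were read from the RefSeq sequence of the same build (GRCm38), and coding bases are counted from the start codon.
Gm10600, chr4:42241394-42241494, + strand, coding bases 328 to 428: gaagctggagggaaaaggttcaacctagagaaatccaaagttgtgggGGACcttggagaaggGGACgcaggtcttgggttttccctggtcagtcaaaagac
Hist1h3h, chr13:21717799-21717899, + strand, coding bases 141 to 241: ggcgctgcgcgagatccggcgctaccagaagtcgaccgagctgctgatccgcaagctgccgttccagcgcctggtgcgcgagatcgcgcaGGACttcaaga
Hist1h3c, chr13:23745262-23745362, - strand, coding bases 136 to 236: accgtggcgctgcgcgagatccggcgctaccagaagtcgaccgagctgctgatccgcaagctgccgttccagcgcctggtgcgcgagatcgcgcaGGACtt
Acot2, chr12:83992721-83992821, + strand, coding bases 1003 to 1103: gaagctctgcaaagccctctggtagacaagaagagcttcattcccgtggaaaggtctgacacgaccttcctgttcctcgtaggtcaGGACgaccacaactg
Abca1, chr4:53080818-53080918, - strand, coding bases 2390 to 2490: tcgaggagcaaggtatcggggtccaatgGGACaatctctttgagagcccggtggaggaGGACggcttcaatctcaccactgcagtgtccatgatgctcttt
Cspg4, chr9:56885918-56886018, + strand, coding bases 936 to 1036: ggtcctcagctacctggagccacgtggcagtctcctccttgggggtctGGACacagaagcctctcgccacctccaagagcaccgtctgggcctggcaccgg
Prrc2b, chr2:32214290-32214390, + strand, coding bases 3779 to 3879: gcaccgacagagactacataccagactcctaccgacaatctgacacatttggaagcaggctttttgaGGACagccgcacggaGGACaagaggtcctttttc
The Hist1h3h and Hist1h3c stretches share 96 coding positions, from 141 to 236, and all 96 bases are the same in both. Reads from such a stretch alone cannot be placed on 1 gene copy by their sequence, and according to the methods just uniquely mapped reads were kept. What part this has in the values of Hist1h3h and Hist1h3c was not tested. The stretches of Gm10600, Abca1 and Prrc2b hold 2 GGAC each.

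The peaks found only in replicate 2 had lower fold enrichments and widths, by their medians, than those it shared with replicate 1. Their fold enrichment had a median of 2.26, with 25% of peaks at or below 1.86 and 25% at or above 2.96, and ranged from 1.22 to 22.5. The 7698 exonic replicate 2 peaks that overlapped a replicate 1 peak had a median of 2.76. The exonic peaks found only in replicate 1 had a median of 2.49, on the scale of their own library. A fold enrichment of at least 4 was reached by 850 of the 8386 peaks (10.1%), against 17.8% of the shared ones, and a fold of at least 8 by 33 (0.394%) against 1.23%. When all exonic replicate 2 peaks were ranked by fold enrichment and cut into 5 bins, the share found only in replicate 2 was 72.7% in the bin of lowest fold and then 59.7%, 48.8%, 41.2% and 38.3%. The share was lower in each bin than in the one before, and in the bin of highest fold 1233 of 3218 peaks had no counterpart. By width, the same shares were 66.8%, 57.9%, 63.7%, 49.8% and 22.7% from the narrowest to the widest bin. The median width was 363 bp, against 451 bp for shared peaks and 342 bp for those found only in replicate 1. A wide peak has more bases with which to meet another, and the part of width in these shares was not tested. Just inside the overlap rule, 21 shared exonic peaks met a replicate 1 peak by at most 20 bp, with a median fold of 2.39. Just outside it, 7 of the 8386 peaks lay within 20 bp of a replicate 1 peak, also with a median fold of 2.39, a value that several peaks of the list carry.

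**Figure D1:**
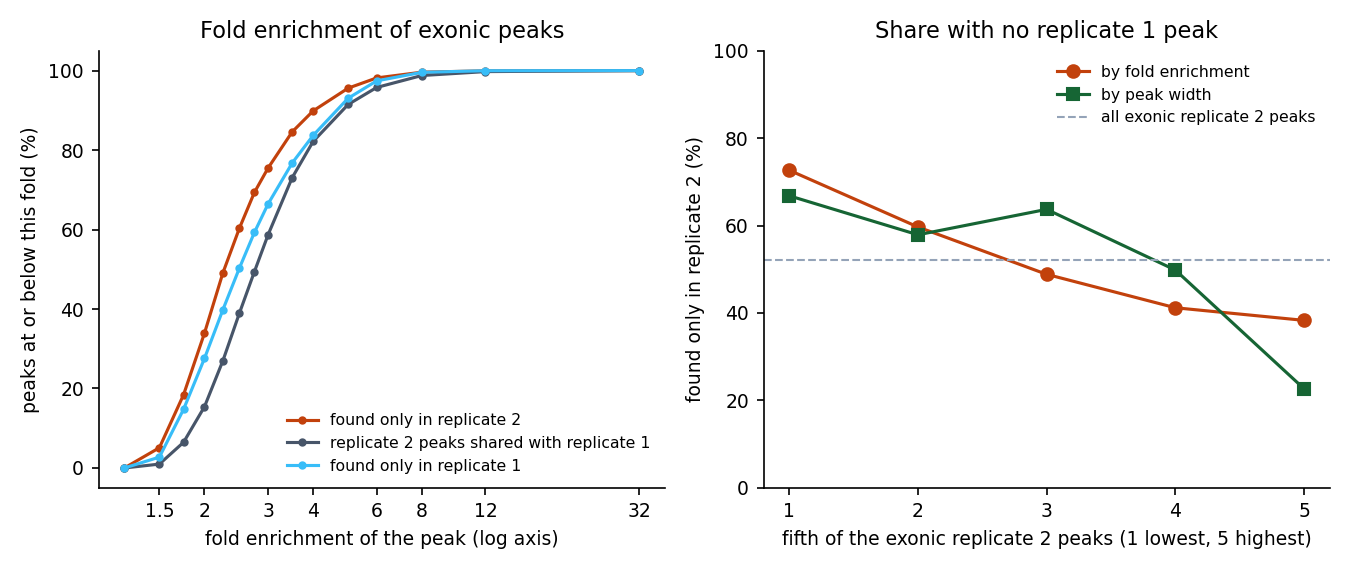
Left, the cumulative share of exonic peaks (vertical axis, percent) at or below a fold enrichment (horizontal axis, log scale) for peaks found only in replicate 2, replicate 2 peaks shared with replicate 1, and peaks found only in replicate 1. Right, the share of exonic replicate 2 peaks without a replicate 1 peak in 5 bins of rising fold enrichment (circles) or width (squares), with the share over all exonic replicate 2 peaks as a dashed line. The share goes from 72.7% to 38.3% by fold and from 66.8% to 22.7% by width.

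Coding sequence held most of the peaks when each was placed by its midpoint. By the annotation at the peak midpoint, 4390 of the 8386 peaks (52.3%, interval 51.3 to 53.4) lay in CDS. The 3′ UTR held 2734 (32.6%, 31.6 to 33.6) and the 5′ UTR 526 (6.27%, 5.77 to 6.81). A further 618 midpoints (7.37%) lay in an intron next to the exon that the peak touched, 85 (1.01%) in exons without an assigned coding or UTR role, 26 between genes and 7 in exons of non-coding RNA. Among the shared replicate 2 peaks, CDS made up 52.1% and introns 4.25%, with 30.3% for the 3′ UTR and 10.6% for the 5′ UTR. The intervals of the CDS shares overlapped, whereas the 5′ UTR share of the peaks found only in replicate 2 lay below that of the shared peaks and of those found only in replicate 1, 10.1%. Among the 850 peaks with a fold of at least 4, the 3′ UTR share was 17.8%, with an interval of 15.3 to 20.5. The median fold enrichment was 2.96 at intronic midpoints, 2.27 in CDS, 2.29 for the 5′ UTR and 2.14 for the 3′ UTR.

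The CDS share depended on how a peak was assigned to a region. When each peak was given the region that held most of its bases, CDS fell to 2603 peaks (31.0%), introns rose to 2358 (28.1%) and the 3′ UTR held 2750 (32.8%). The 3′ UTR, and not CDS, was then the largest region. By the same count, the shared peaks had 44.1% in CDS and 11.7% in introns. Short exons inside wider peaks were common. Of the 8386 peaks, 2708 (32.3%) held a whole exon and reached beyond it on both sides, against 20.2% of shared peaks and 26.2% of peaks found only in replicate 1. Among them, 2257 peaks touched just that exon. In these, the exon had a median length of 165 bp and the peak a median width of 416 bp, and the midpoint of the peak lay within 50 bp of the exon midpoint in 95.8%. Peaks with fewer than 50% of their bases in exons numbered 2353 (28.1%), against 12.6% of shared peaks and 23.3% of those found only in replicate 1. The caller was run without its fragment model, and what part this has in the intronic bases was not tested. At the other end, 4030 peaks (48.1%) were wholly exonic.

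**Figure D2:**
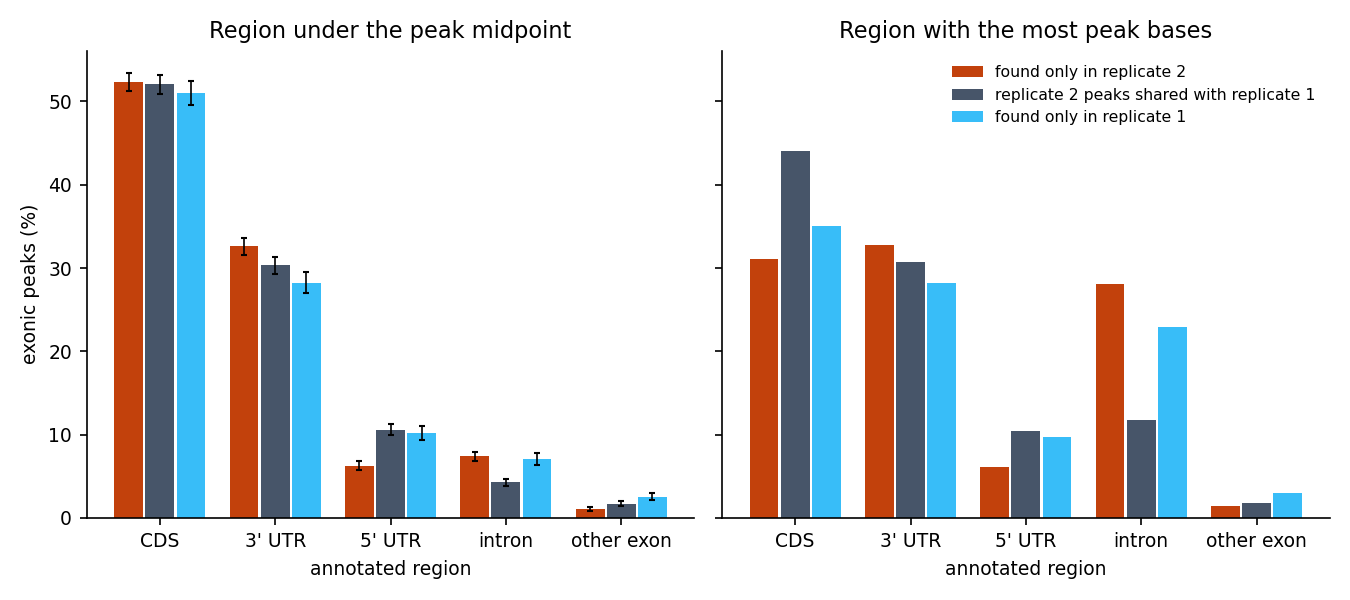
Share of exonic peaks (vertical axis, percent) by annotated region for peaks found only in replicate 2, shared replicate 2 peaks and peaks found only in replicate 1, with the region taken at the midpoint (left, bars are 95% Wilson intervals) or as the region with the most bases (right). For the peaks found only in replicate 2, CDS goes from 52.3% at the midpoint to 31.0% by bases, and introns from 7.37% to 28.1%.

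A start codon lay under 568 of the 8386 peaks (6.77%, interval 6.25 to 7.33) and under 12.3% of the shared peaks. A stop codon lay under 584 peaks (6.96%, 6.44 to 7.53), against 11.7% of shared peaks and 6.67% of peaks found only in replicate 1. Shared peaks were wider, and the part of width in these shares was not tested. The 3′ UTRs of all transcripts of a gene were merged and cut into 5 bins. In the first bin lay 17.8% of the midpoints of the peaks found only in replicate 2 (interval 16.4 to 19.2), below an even 20%. The other bins held 20.0%, 20.4%, 21.5% and 20.3%. Shared peaks had 24.2% in the first bin and 14.1% in the last. The intervals of the 2 groups did not overlap in either of these bins, while the peaks found only in replicate 1, with 18.3% and 17.8%, stood closer to those found only in replicate 2. On 1 representative transcript per gene, the pattern differed. Of all 7125 midpoints found only in replicate 2 on it, 8.39% lay in the first 3′ UTR bin and 5.67% in the last. For shared peaks these were 9.42% and 3.89% of 6635 midpoints. The low first bin of the peaks found only in replicate 2 was thus seen on the merged 3′ UTRs only. Along the CDS, the peaks found only in replicate 2 thinned towards the stop codon, from 22.3% in the first bin to 13.6% in the last, and shared peaks did so as well, from 23.2% to 15.0%.

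**Figure D3:**
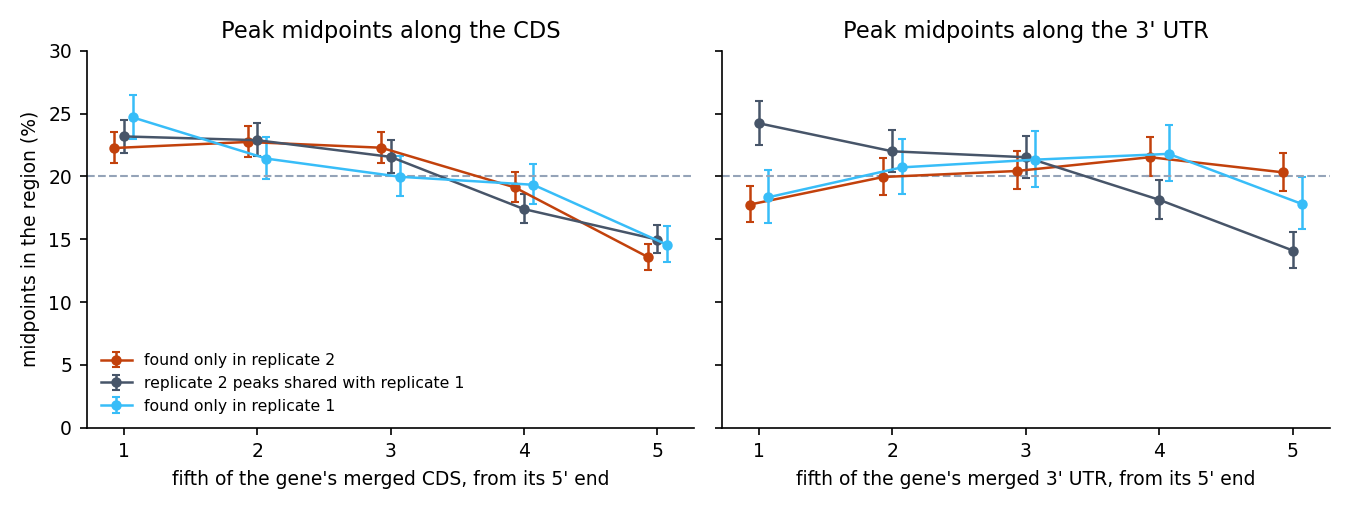
Share of peak midpoints (vertical axis, percent, with 95% Wilson intervals) in 5 equal bins along the merged CDS (left) and the merged 3′ UTR (right) of the gene, from the 5′ end, for the same 3 groups of peaks. The dashed line marks an even spread of 20%. In the last bin of the 3′ UTR, peaks found only in replicate 2 have 20.3% and shared peaks 14.1%.

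GGAC was found in similar shares of the peaks found only in replicate 2 and of the shared ones. The motif searched was GGAC, on the strand of the gene, in 101 bases around the peak midpoint along 1 representative transcript. Such a window existed for 7107 peaks, those with a midpoint on that transcript and enough bases on both sides. It can reach past the ends of the peak. It was found in 2665 windows (37.5%, interval 36.4 to 38.6), in 37.2% of shared peaks and in 37.6% of peaks found only in replicate 1. Of all consecutive windows of 101 bases over 1 representative transcript of every gene, 32.4% held it. Of all coding windows, 37.8% held it. The median GC content was 54.5% in the windows of the peaks and 49.5% over all transcript windows, and the part of base composition was not tested. Within CDS, 1773 of 4176 windows of the peaks (42.5%, 41.0 to 44.0) held the motif, and 40.8% of shared ones. GTCC, the reverse complement and so the motif on the other strand, was in 34.0% of the windows, against 28.0% over all transcripts. The longer GGACT was in 12.0%, against 9.97%. A match describes the letters of the window and does not show a methylated or bound site.

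The 8386 peaks fell in exons of 3550 protein-coding genes, 16.2% of the 21951 annotated ones and 76.9% of the 4619 genes with any exonic replicate 2 peak. A replicate 1 peak was found elsewhere in the exons of 1912 of these genes (53.9%, interval 52.2 to 55.5). In 1553 of the 1912, replicate 1 also shared a peak with replicate 2, whereas in 359 the libraries had peaks in the same gene at different places. The other 1638 genes, 7.46% of all protein-coding genes, had no replicate 1 peak in any exon. In 120 of these a replicate 1 peak lay in the gene outside its exons, and in 1518 no replicate 1 peak lay anywhere between the ends of the gene. Counted by peaks, 5355 of the 8386 (63.9%) lay in a gene with a replicate 1 exonic peak and 3031 in a gene without.

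The genes with a replicate 1 peak elsewhere were longer by their median. Their merged exons had a median length of 7936 bp, against 5755 bp in the genes without and 3498 bp over all protein-coding genes. Their peaks found only in replicate 2 had a median fold enrichment of 2.37, against 2.09 in the genes without. For the 5355 peaks in a gene with a replicate 1 exonic peak, the gap to the nearest of these had a median of 6668 bp along the genome. It was under 100 bp for 66 of the 5355 peaks (1.23%), under 1000 bp for 1137 (21.2%) and under 10000 bp for 3079 (57.5%). The exon itself also held a replicate 1 peak for 1324 of the 5355 peaks (24.7%).

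Most genes had few of these peaks and a small number had many. With each peak assigned to the gene with the most overlapped exon bases, 3469 genes were left, with a median of 2 peaks. A single peak was found in 1696 of them (48.9%), 5 or more in 418 and 10 or more in 77, and the last group held 1065 peaks. The merged exons of these 77 genes had a median length of 15469 bp. Of the 77, 14 had no replicate 1 exonic peak and 17 had no shared peak.

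The gene with the most was Syne1, which encodes the giant nuclear envelope protein nesprin-1, with 37 peaks on 40491 bp of merged exons. Their fold enrichments ranged from 1.45 to 4.93, and Syne1 had 11 shared peaks besides. Smg1, a kinase of nonsense-mediated mRNA decay, had 22 peaks with folds from 1.65 to 4.84 next to 7 shared ones. The calcium channel gene Cacna1e had 21 and Tnr, the gene of the matrix protein tenascin-R, also 21. Herc2 and Ubr4, which encode ubiquitin ligases, Acaca, the gene of acetyl-CoA carboxylase, and the receptor phosphatase gene Ptprt had 20 each, and the calcium channel gene Cacna1i had 19.

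Lrp1 was the only one of these 10 genes without a shared peak. It encodes a large endocytic receptor for lipoproteins, and had 22 peaks found only in replicate 2 with a median fold of 2.05, from 1.39 to 3.94, and 0 shared peaks. Its single replicate 1 peak had a fold of 1.63 and lay near the 5′ end of the transcript, on exonic bases 41 to 257 of 17717, upstream of all 22. The peaks were spread over exonic bases 913 to 14117.

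Among genes with no replicate 1 exonic peak, those with the most peaks included Nwd1 with 16, Abca1 with 15, Itpr2 with 14 and Cacna1b with 13. Abca1 encodes the transporter that moves cholesterol out of cells, and 11 of its peaks had their midpoint in CDS. Its folds ranged from 1.78 to 6.44, with the highest on exonic bases 2436 to 2657, and with folds of 4.40 on bases 2122 to 2212 and 3.94 on bases 2658 to 2862. In the same order, 222 of 491, 91 of 224 and 205 of 488 bp of these peaks were exonic, so each lay mostly outside exons. Itpr2, the gene of an inositol trisphosphate receptor of the endoplasmic reticulum, had a median of 3.66, the highest of these 4 genes, with folds from 2.46 to 4.77. Cacna1b, the N-type calcium channel gene, ranged from 1.41 to 4.94, and Nwd1 from 1.77 to 3.47.

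**Figure D4:**
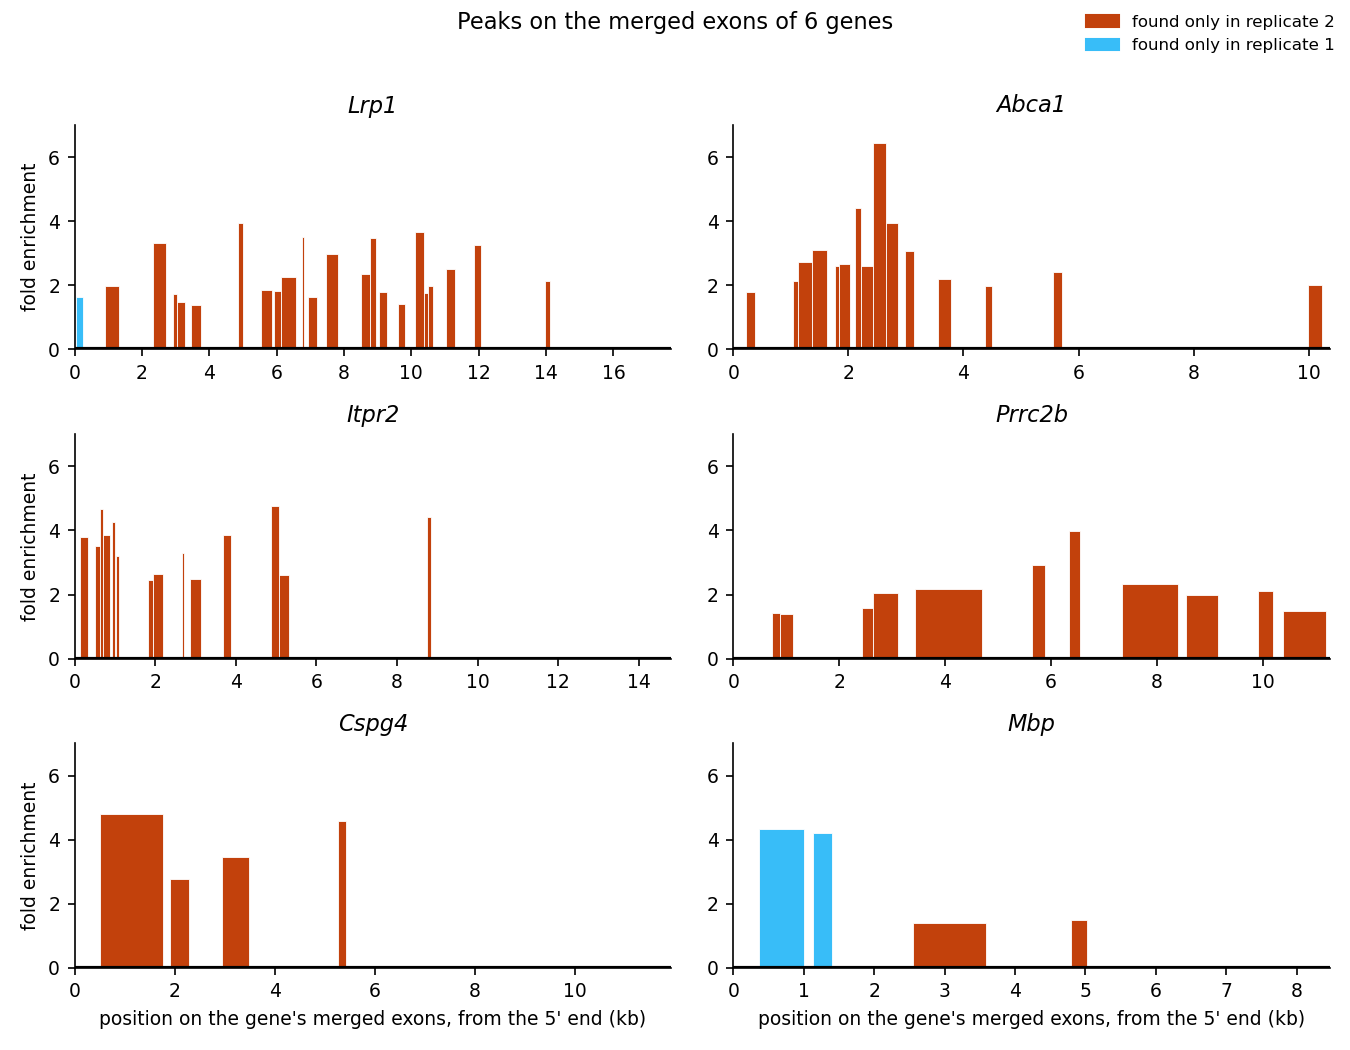
Peaks on the merged exons of Lrp1, Abca1, Itpr2, Prrc2b, Cspg4 and Mbp, with the position from the 5′ end of the gene in kb on the horizontal axis and the fold enrichment on the vertical axis. Each bar spans the exonic bases from the first to the last that the peak touches. Abca1, Itpr2, Prrc2b and Cspg4 have no replicate 1 peak, Lrp1 has 1 at its 5′ end against 22 of replicate 2, and in Mbp the replicate 1 peaks (folds of 4.21 and 4.32) lie upstream of the weaker replicate 2 peaks. The genes were picked for display after their values were known.

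Genes were ranked by fold enrichment over peaks with at least 50% of their bases in exons of the gene. Peaks with less were left out of this ranking, whatever their fold. The 10 highest genes had 393 to 5619 bp of merged exons, and 4 of them were histone genes, which have close copies elsewhere in the genome. The predicted gene Gm10600 on chromosome 4 had both the highest value, 22.5 in its CDS, and a peak of 18.7 in its 3′ UTR. The histone gene Hist1h4m followed with 15.0 and the ribosomal protein gene Rpl29 with 14.8, the latter across the stop codon. Then came Hist1h3h with 12.2, Gm15446 with 11.9, Acot2, the gene of a mitochondrial acyl-CoA thioesterase, with 11.0, and Hist1h2ai with 9.36. Zxdb, which encodes a zinc finger protein, had 9.20, and Hist1h2bk and Ppara, the gene of a nuclear receptor for fatty acids, had 9.05 each. Of these 10 genes, only Zxdb and Ppara had a replicate 1 peak elsewhere in their exons. In Zxdb the gaps from the 3 peaks to the nearest replicate 1 peak were 125, 485 and 2270 bp, and the replicate 1 folds were 2.17 and 2.36. Among genes without a replicate 1 exonic peak, ranked in the same way, Amd2, a gene of the polyamine enzyme S-adenosylmethionine decarboxylase, with 8.74 and Hist1h3c with 8.53 completed the 10 highest. How reads from near-identical copies were shared between the genes was not tested.

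The genes were then read by function, with 16.2% of all protein-coding genes as the background for a list and 76.9% for those of its genes that had any exonic replicate 2 peak. Of all 3550 genes with a peak found only in replicate 2, 1638 had no replicate 1 exonic peak and 1912 (53.9%) had one. The counts of list genes without a replicate 1 exonic peak are to be read against this. In the m6A machinery, 10 of 23 genes (43.5%, and 83.3% of the 12 with any exonic replicate 2 peak) had a peak found only in replicate 2, and 5 of the 10 had no replicate 1 exonic peak. Genes with many of these peaks were long, as given above, and the median exonic length of the list, 7402 bp, is above the 3498 bp of all genes. The part of length was not tested in this or the following lists. All members of the Prrc2 family were among the 10. Prrc2a, whose protein was the target of the antibody, had 3 peaks in its CDS with folds of 2.10, 1.61 and 1.57, and no shared or replicate 1 peak. Its paralog Prrc2b had 11, from 1.38 to 3.97, of which 7 lay in CDS and 4 in the 3′ UTR, again with none in replicate 1. Prrc2c had 4, from 1.52 to 3.01, next to 1 shared peak.

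Both demethylase genes carried such peaks as well. Alkbh5 had 4, all in its 3′ UTR, with folds of 3.26, 3.12, 2.38 and 2.13, and its 2 replicate 1 peaks lay at least 15650 bp away. Alkbh5 also had 1 shared peak, with a replicate 2 fold of 3.31. Fto had 1 weak peak of 1.44 in its 3′ UTR and none in replicate 1. Of the writer complex, Zc3h13 had 3 peaks, with the highest at 3.72, next to 1 shared peak. Virma had 2 of 3.01, next to 2 shared ones. Among readers, Ythdc2 reached 4.16, Ythdf3 3.19 and Igf2bp3 3.18, with 2, 2 and 1 peaks.

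Regulators of the oligodendrocyte lineage had 11 of 27 genes (40.7%) with a peak found only in replicate 2, 6 of them without a replicate 1 exonic peak. Of the 16 with any exonic replicate 2 peak, this was 68.8%, below the 76.9% of all such genes. Cspg4, which encodes the NG2 proteoglycan of oligodendrocyte precursors, had 4 peaks with folds of 4.79, 4.58, 3.46 and 2.78, and none in replicate 1. The strongest covered 1259 bp of its CDS. Gpr17, a receptor gene of cells on the way to myelination, also had 4 without a match, from 1.46 to 2.81. Pdgfra, the growth factor receptor gene of precursors, had 1 peak of 5.31, of which just 26 of 217 bp were exonic, so that it lay mostly in an intron. The single Sox6 peak, at 5.93, lay in an exon without an assigned coding or UTR role, and Sox6 had 6 shared peaks elsewhere. Sox5 had peaks of 2.84 and 2.43 and Zfp536 1 of 2.92, and both also had shared peaks. The other 5 genes, Zfp488, Yy1, Tcf7l2, Hes5 and Myrf, ranged up to 2.48.

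Myelin genes stayed near the background, with 4 of 29 (13.8%), which was 4 of the 5 with any exonic replicate 2 peak. Mbp, the gene of myelin basic protein, had weak peaks of 1.49 and 1.41 in its 3′ UTR, while its replicate 1 peaks, at 4.21 and 4.32, lay 41037 bp and more away along the gene and were not matched in replicate 2. Nfasc, the gene of the nodal adhesion protein neurofascin, had 5 peaks, 4 of them in the 3′ UTR at 1.55 to 1.85 and 1 of 3.58 in the 5′ UTR. Mobp reached 1.63 and Cntn2 1.69. Among other cell type markers, Map2 (4 peaks, up to 4.82), Gad2 (2, up to 2.06) and Nefm (1.32) were the 3 of 21 neuronal markers, Slc1a2 (5 peaks, up to 2.14) was the only 1 of 16 astrocytic markers, and Cx3cr1 (3 peaks, up to 5.62) and Csf1r (1.81) were the 2 of 17 for microglia and endothelium. The Map2 peak of 4.82 lay mostly in an intron, with 39 of 205 bp exonic, and the next highest was 1.90. The 3 cell type lists in the supplement of the study gave 124 of 481 oligodendroglial genes (25.8%), 130 of 465 astrocytic genes (28.0%) and 148 of 476 neuronal genes (31.1%). Over their genes with any exonic replicate 2 peak, the order was the opposite, with 81.0%, 76.5% and 71.8%.

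Genes of neuronal excitability and of the synapse were above the background of all genes. For voltage-gated sodium and calcium channels it was 23 of 40 genes (57.5%), with 126 peaks, and 8 of the 23 had no replicate 1 exonic peak. Cacna1i reached 6.57, Cacna1c 6.02 and Cacna1g 4.97. The Cacna1i peak had 200 of 587 bp in exons. For glutamate and GABA receptors it was 19 of 46 (41.3%), led by Gabrg3 at 4.58 and Grin3a at 4.45, for postsynaptic scaffolds and kinases 11 of 27 (40.7%), led by Shank2 at 5.47, and for synaptic vesicle genes 16 of 47 (34.0%), led by Unc13b at 5.35. Potassium channels had 28 of 94 (29.8%), led by Kcnj2 at 5.08. Of the 49 potassium channel genes with an exonic replicate 2 peak, 57.1% held one found only in replicate 2, below the 76.9% of all such genes. On the same count it was 73.3% for the postsynaptic genes, 79.2% for the receptors, 88.9% for the synaptic vesicle genes and 95.8% for sodium and calcium channels. The potassium channel genes have a median exonic length of 4171 bp and the sodium and calcium channel genes 8343 bp.

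Ubiquitin ligases had the highest share of the lists, and chromatin regulators were close to the sodium and calcium channels. Of 36 ubiquitin ligase genes, a list of HECT, cullin and UBR family genes, 25 (69.4%) had a peak found only in replicate 2, and 12 of them had no replicate 1 exonic peak. No other gene of the list had an exonic replicate 2 peak. Herc1 had 9 peaks up to 6.40 and Huwe1 15 up to 4.42, the last without a shared peak. Of 94 chromatin remodelers and histone modifiers, 52 (55.3%) had such a peak, with Chd7 at 8.43, Kdm4d at 7.25, Kdm2b at 6.42 and Kmt2c at 6.15. Only 14 of these 52 genes lacked a replicate 1 exonic peak. Cytoskeletal genes, namely tubulins, microtubule-associated proteins and motors, had 23 of 82 (28.0%), led by Kif26b at 4.91, and 14 of the 23 had no replicate 1 exonic peak. Of the genes with any exonic replicate 2 peak, one found only there was present in 83.9% of the chromatin genes and 88.5% of the cytoskeletal ones. The median exonic lengths of these lists were 9418, 8122 and 5364.5 bp.

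Ribosomal, respiratory, proteasome and hnRNP or SR protein genes had few. It was 1 of 85 (1.18%) for cytosolic ribosomal proteins, the Rpl29 peak above, and 1 of 85 for oxidative phosphorylation. It was 1 of 39 (2.56%) for the proteasome (Psmd5, 2.01) and 2 of 40 for hnRNP and SR proteins (Hnrnpd, 1.95, and Hnrnpul2, 1.92). Nearer to the 16.2% background, it was 8 of 73 (11.0%) for translation factors, led by Eif4e2 at 5.73, and 11 of 89 (12.4%) for heat shock proteins and chaperones, led by Hspg2 at 6.69, which the search by symbol took in although it encodes the matrix protein perlecan. For the ribosomal, oxidative phosphorylation and proteasome lists these were the only genes with any exonic replicate 2 peak, and their median exonic lengths were 1739, 1550 and 2820 bp, against 3498 bp over all genes. Of the translation factors and chaperones with any exonic replicate 2 peak, 88.9% and 84.6% had one found only there, above the 76.9% of all such genes.

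Histone and immediate early genes with a replicate 2 peak mostly shared it with replicate 1. Of 67 clustered histone genes, 44 had an exonic replicate 2 peak, and in just 10 (22.7% of the 44, against 76.9% of all such genes) was it found only there. None of the 10 had a replicate 1 exonic peak, each had a single peak, and their median fold was 8.32, the highest of the lists with more than 1 gene. Of 20 immediate early genes, which neurons switch on within minutes of activity, 18 had an exonic replicate 2 peak and all 18 shared one with replicate 1. Only Homer1 (3.90) and Ier2 (2.05) had a further peak found only in replicate 2 (11.1% of the 18).

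**Figure D5:**
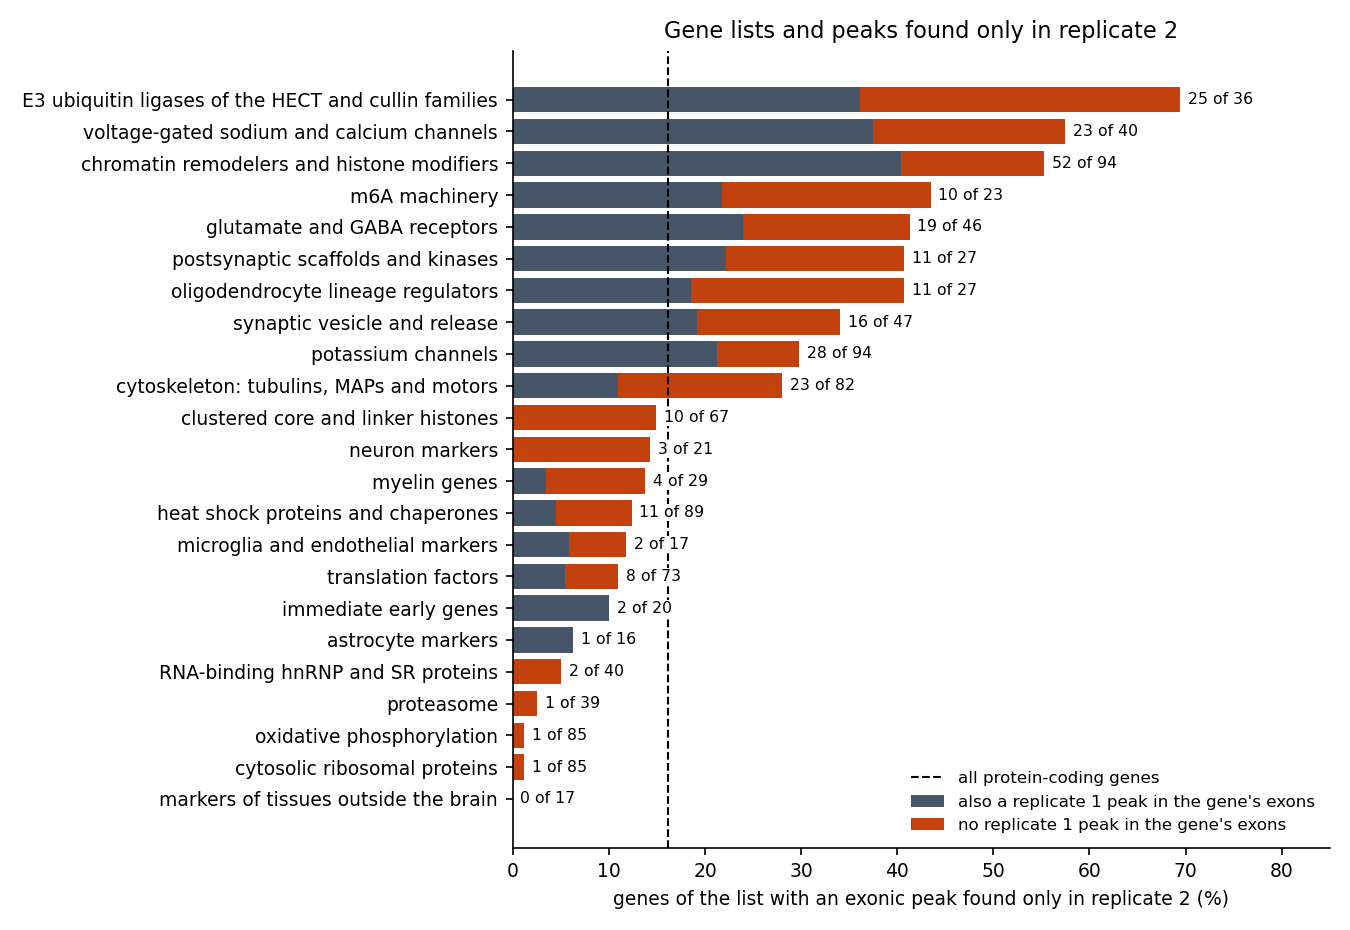
Share of the genes of each list (horizontal axis, percent of its annotated genes) with an exonic peak found only in replicate 2, split into genes with and without a replicate 1 peak elsewhere in their exons. Numbers give genes of genes, and the dashed line marks the 16.2% of all protein-coding genes. Ubiquitin ligases reach 69.4% and ribosomal proteins 1.18%.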

How the data were processed

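Prrc2a RIP-seq was performed on whole brain in 2 replicates. Per the paper's methods, the authors used TopHat to align trimmed reads to mm10, discarded those not uniquely mapped and called peaks in each replicate with MACS2 without a fragment model at a fixed FDR. The submitters' notes name TopHat2 2.0.9 and MACS2 2.0.10, and the methods name later versions. The deposited value is the fold enrichment, a linear ratio over a control library that is not given in the sources used here. The files hold no read count, FDR, strand or gene, so depth and precision are unknown. Of the 8386 peaks found only in replicate 2, 1166 (13.9%) had a fold value carried by 10 or more replicate 2 peaks, against 10.3% of shared peaks. What part such ties have in the rankings by fold was not tested.

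From these, overlaps (1 bp, positions 1-based), regions (at the midpoint, with CDS first, then 3′ UTR, then 5′ UTR, other exon, non-coding RNA and intron), genes and motifs were computed with Python 3.11.15, numpy 2.4.6, scipy 1.17.1, pysam 0.24.0, samtools 1.23.1 and GENCODE release M21. A peak over exons of several genes counted for each (115 peaks). Overlap and region functions were checked on simulated peaks with known positions. No test was made, since there was 1 condition. Genes were named by rule: the 10 with the highest fold and the 10 with the most peaks, the 10 and 5 such among genes without a replicate 1 exonic peak, up to 4 per list by fold, and every gene of the m6A, oligodendrocyte lineage and myelin lists with a peak. For both sets of 10 by highest fold, only peaks with at least 50% of their bases in exons of the gene were ranked. The genes named per list were ranked without this limit. Some items these rules select are not reported here. Members and lists were chosen with earlier results of these data known.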

Additional observations from a re-analysis of the deposited data

How the results depend on the processing

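Alternatives changed 1 choice at a time. With a fold enrichment of at least 4 required in replicate 2, 850 peaks in 644 genes were left, with a median fold of 4.79. Of these genes, 68.0% had a replicate 1 exonic peak elsewhere, and the shares were 17.8% in 3′ UTR, 8% in 5′ UTR and 39.4% with GGAC. When an overlap had to cover 50% of both peaks to count as shared, 11340 peaks in 4175 genes counted as found only in replicate 2. The share of genes with a replicate 1 exonic peak was then 60.6%, the median fold 2.37, and the CDS and 3′ UTR shares 50.7% and 34.4%. With at least 50% of the bases of the peak required in exons, 6033 peaks in 3254 genes were left. Here the share of genes was 51.8% and the median fold 2.20. The CDS, 3′ UTR and 5′ UTR shares were 43.5%, 45.3% and 8.16%. By the region with the most bases, CDS held 31.0%. Counting replicate 1 peaks within 200 bp as matches, 1 gene per peak, and the basic transcript set moved no value beyond its interval, and no count by more than 1.5 times. Leaving out a replicate was not possible, because the choice of peaks needs both lists. No paired analysis was possible because there was 1 group. A stricter FDR could not be tried, as the lists hold none.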
